A study of Homo sapiens with 39 samples.

Results

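The Fanconi anemia (FA) and homologous recombination (HR) genes were examined in HepaRG™ cells exposed to chemicals that do or do not damage DNA. The members were 37 named genes, chosen by symbol as the target rows of the deposited tables, out of 20802 gene targets. All 37 had 1 target each and all 37 passed the filter on low counts. They were the core complex that marks FANCD2 and FANCI with ubiquitin and its E2 enzyme (9 genes), the FANCD2 and FANCI pair itself (2), the BRCA proteins and partners (5), the group of RAD51C, RAD51D, XRCC2 and XRCC3 (4), strand exchange factors (3), end resection factors (4), factors that dissolve or cut joint molecules (5) and checkpoint genes (5).

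HepaRG™, an established line of human liver progenitors, gives cultures of hepatocyte-like and cholangiocyte-like cells when differentiated. Differentiated cells were treated repeatedly over 55 h, and RNA was taken 7 h after the last treatment. The DNA damage-inducing (DDI) chemicals were aflatoxin B1 (AFB1) at 0.25, 1 and 2.5 µM, 2-nitrofluorene (2NF) at 10, 50 and 250 µM, cisplatin (CISP) at 2, 5 and 10 µM and etoposide (ETP) at 0.5, 2.5 and 10 µM, all in DMSO, and methyl methanesulfonate (MMS) at 50, 100 and 200 µM in water. The non-DDI chemicals were colchicine (COL) at 0.05, 0.1 and 0.3 µM in DMSO and, in media, ampicillin trihydrate (AMP) at 1, 3 and 10 mM, 2-deoxy-D-glucose (2DG) at 1.25, 5 and 10 mM, sodium ascorbate (ASC) at 1, 2 and 10 mM and sodium chloride (NaCl) at 1, 2.5 and 10 mM. The 3 values of a chemical are called its low, mid and high concentration. The 9 vehicle controls were 4 of DMSO, 4 of media and 1 of water, and AFB1 and COL shared a DMSO control. RNA of 3 cultures was pooled into each library, so a condition is 1 library without a replicate. A p-value compares chemicals, concentrations or, among the controls, vehicles, not cultures. Class and vehicle were nearly confounded, since 4 of the 5 DDI chemicals and of the non-DDI chemicals COL alone were given in DMSO.

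A stalled fork or a crosslink between the strands of DNA calls the FA core complex, whose E3 ligase FANCL works with the E2 enzyme UBE2T to attach ubiquitin to FANCD2 and FANCI. The modified pair directs nucleases to the lesion, and the broken strand is then repaired from the sister chromatid: ends are resected, BRCA2 and its partners prepare the strand, RAD54 proteins and others act in the invasion of the sister strand, and BLM or structure-specific nucleases separate the joined molecules. HR needs a sister chromatid, so it works in S and G2 phase, and many of its genes are transcribed with the replication genes by E2F factors. Most cells of a differentiated liver culture do not divide.

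Because E2F factors transcribe many such genes, promoters were searched for E2F-type and other letters. The windows ran from 250 bases before to 50 bases after each gene start in RefSeq sequences (GRCh38.p14, not the build of the deposited files). Windows were found for 34 of the 37 members. TTCCCGC stood on either strand in 14 of them (41.2%), against 7.82% of 27305 genes, and TTTNNCGC in 9 (26.5%), against 8.23%. One or the other, which can overlap, was found in 19 members (55.9%) and in 13.5% of genes. The 27305 genes were not matched to the members by base composition or expression. CCAAT was found in 44.1% of the members and 39.7% of genes, and TTTGAA, the letters of a cell cycle homology region, in 11.8% and 18.2%. The stretches below, with 7 members, are those of members that were called in the dose trend of at least 1 chemical and had a match that lay whole before the gene start. Each holds the first such match and up to 30 bases on either side. They are printed 5′ to 3′ on the strand of the gene, with the matched letters in capitals.
FANCA (chr16:89816782-89816849, minus strand): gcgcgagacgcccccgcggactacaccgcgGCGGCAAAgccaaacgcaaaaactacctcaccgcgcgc
FANCG (chr9:35079990-35080056, minus strand): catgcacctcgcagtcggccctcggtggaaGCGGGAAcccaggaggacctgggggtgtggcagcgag
BRCA1 (chr17:43125375-43125441, minus strand): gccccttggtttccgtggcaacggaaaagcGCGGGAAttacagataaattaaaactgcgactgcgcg
RAD54L (chr1:46247609-46247675, plus strand): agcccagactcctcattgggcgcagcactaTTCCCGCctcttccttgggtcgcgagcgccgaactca
MND1 (chr4:153344624-153344687, plus strand): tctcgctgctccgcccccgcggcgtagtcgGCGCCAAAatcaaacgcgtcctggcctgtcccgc
EXO1 (chr1:241848612-241848679, plus strand): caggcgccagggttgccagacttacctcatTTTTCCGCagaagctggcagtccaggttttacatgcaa
BLM (chr15:90717242-90717308, plus strand): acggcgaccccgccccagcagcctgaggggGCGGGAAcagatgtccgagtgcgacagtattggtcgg
Such letters were not limited to members that rose. They stood in 12 of the 18 windows of members called in the dose trend of at least 1 chemical and in 7 of the 16 others, RMI1 and CHEK2 among them. A match is a description of the letters, not a binding site.

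A library held between 8504699 and 16425527 counts (median 11202013), and the 37 members together took 4090 to 9747 counts of a library. At least 10 counts in every library were found for 30 members, and RAD51D, with a median of 9 counts, was the lowest. Levels are given as RPM, read counts scaled to the size of the library, and were not compared between genes, since each target has its own primers. Ratios are differences of log2(RPM + 1) between a treated library and its matched control. Changes of genes with low levels are understated on this scale. All 10 hepatocyte markers and 4 of 7 cholangiocyte markers had at least 10 counts in every library. In bulk RNA, fewer cells of a type and less RNA per cell cannot be told apart.

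Many members differed between the vehicles in the absence of a chemical. In the comparison of 4 DMSO with 4 media controls, 17 of 37 members were lower in DMSO by edgeR and 0 were higher, while 3.68% of all genes tested were lower. FANCD2 was at 2.41 to 4.62 RPM in DMSO, 7.30 to 8.53 in media and 8.25 in water. RAD54L, a motor protein that acts in strand invasion, was at 1.15 to 1.36 RPM in DMSO and 3.36 to 5.52 in media, a log2 difference of -1.85 (SE 0.24, adjusted p = 0.0029). EME1, a partner of the nuclease MUS81, was at 0.50 to 1.06 RPM in DMSO and 2.52 to 3.96 in media (log2 difference -1.95, SE 0.29, adjusted p = 0.0053). In none of these 3 genes did the vehicles overlap.

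For 22 of the 37 members every DMSO control lay below every media control, which held for 8.8% of all genes. The vehicles overlapped in the other 15, such as NBN at 56.9 to 72.2 RPM in DMSO and 54.5 to 84.1 in media. The summed RPM of 12 proliferation genes was 97.9 to 129 in DMSO and 178 to 328 in media, and that of 12 replication genes was 410 to 454 and 868 to 963. The part of these genes in the difference between the vehicles was not tested. The comparison was chosen after the values were seen. Each control was matched to a different chemical, or to AFB1 and COL together, so differences between these sets are part of the comparison. Leaving out each control in turn gave 8 to 15 members, the lowest without the control of CISP. Each of these fits lacked a control, and the share of all genes called in them is not given.

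**Figure D1:**
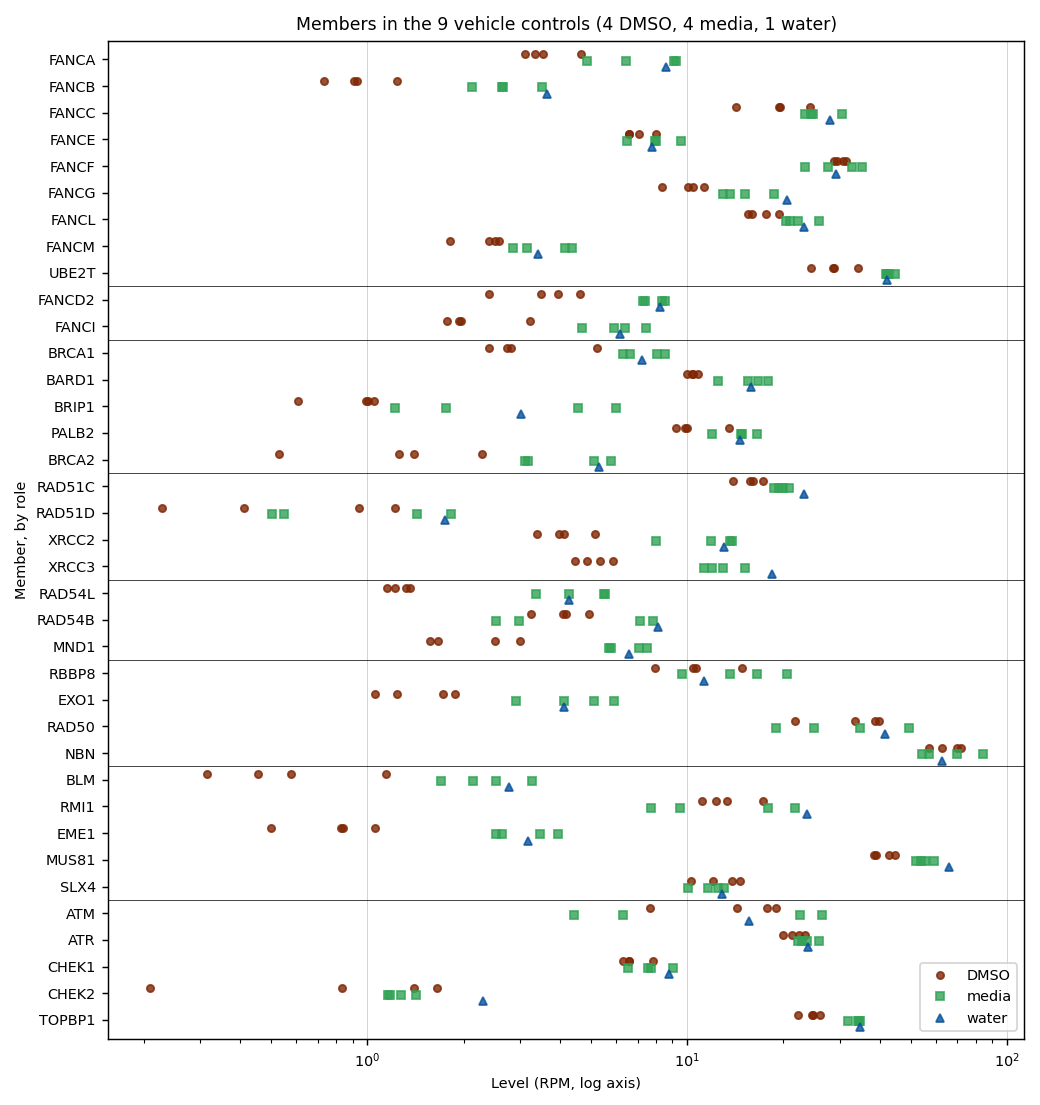
Level of each member in the 9 vehicle controls (x axis, RPM on a log axis; 1 point per library; circles DMSO, squares media, triangles water), with members in rows by role. The DMSO points of FANCD2, XRCC2, RAD54L, MND1 and EME1 lie to the left of all media points, whereas those of FANCF, NBN and ATR overlap with them.

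At the high concentration 13 of the 37 members rose in DDI chemicals and 24 did not pass the test. The 13 were called higher against the matched controls by edgeR at an adjusted p under 0.05 and 0 lower, with 1.49% of all genes called higher. They were FANCA and UBE2T of the core complex group (2 of 9), FANCD2 and FANCI (2 of 2), BRCA1 and BRCA2 (2 of 5), RAD51C, XRCC2 and XRCC3 (3 of 4 in their group), RAD54L and MND1 (2 of 3 in strand exchange), EXO1 (1 of 4 in end resection) and BLM (1 of 5 in dissolution and resolution). None of the 5 checkpoint genes was called. The DMSO controls of this comparison are also those that differed from media above, so the 2 comparisons are not independent. In the comparison of vehicles the 13 members had log2 differences of -1.86 (BLM) to -0.30 (RAD51C), and RAD51C was the one of them not called lower in DMSO (adjusted p = 0.18). The median log2 difference of the 37 members was 0.66 in DDI chemicals and 0.10 in non-DDI chemicals, against -0.00051 and 0.0040 for all genes tested. In non-DDI chemicals edgeR called 0 members, but it also called 0% of all genes tested, higher or lower. At an unadjusted p under 0.05, 2 members (BRCA2 and CHEK1) were higher, a level that 2.5% of genes reached.

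Leaving out AFB1 ended the call in DDI chemicals. Without AFB1, edgeR called 0 of 37 members (0.0734% of genes were called higher), with 21 at an unadjusted p under 0.05. Without 2NF it called 5 members (0.463% of genes called higher), without MMS 8 (0.834%) and without COL 18 (3.59%). With only the chemicals given in DMSO it called 5 (BRCA2, EXO1, FANCA, MND1 and XRCC2, with 0.892% of genes called higher). Without the block for the matched control it called 0 (0.393% of genes called higher), with 14 at an unadjusted p under 0.05.

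The difference between the classes did not reach the threshold. For DDI minus non-DDI at the high concentration, edgeR called 0 of the 37 members, and 0.0515% of genes were called higher. DESeq2 called 3 (EXO1, MND1 and RAD54L), with 0.573% of genes called higher. At an unadjusted p under 0.05, 19 members were higher and 0 lower, against 4.33% of genes higher. For 4 members (FANCL, RAD54L, MND1 and EXO1) each of the 5 DDI ratios lay above each of the 5 non-DDI ratios, which held for 0.926% of genes.

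**Figure D2:**
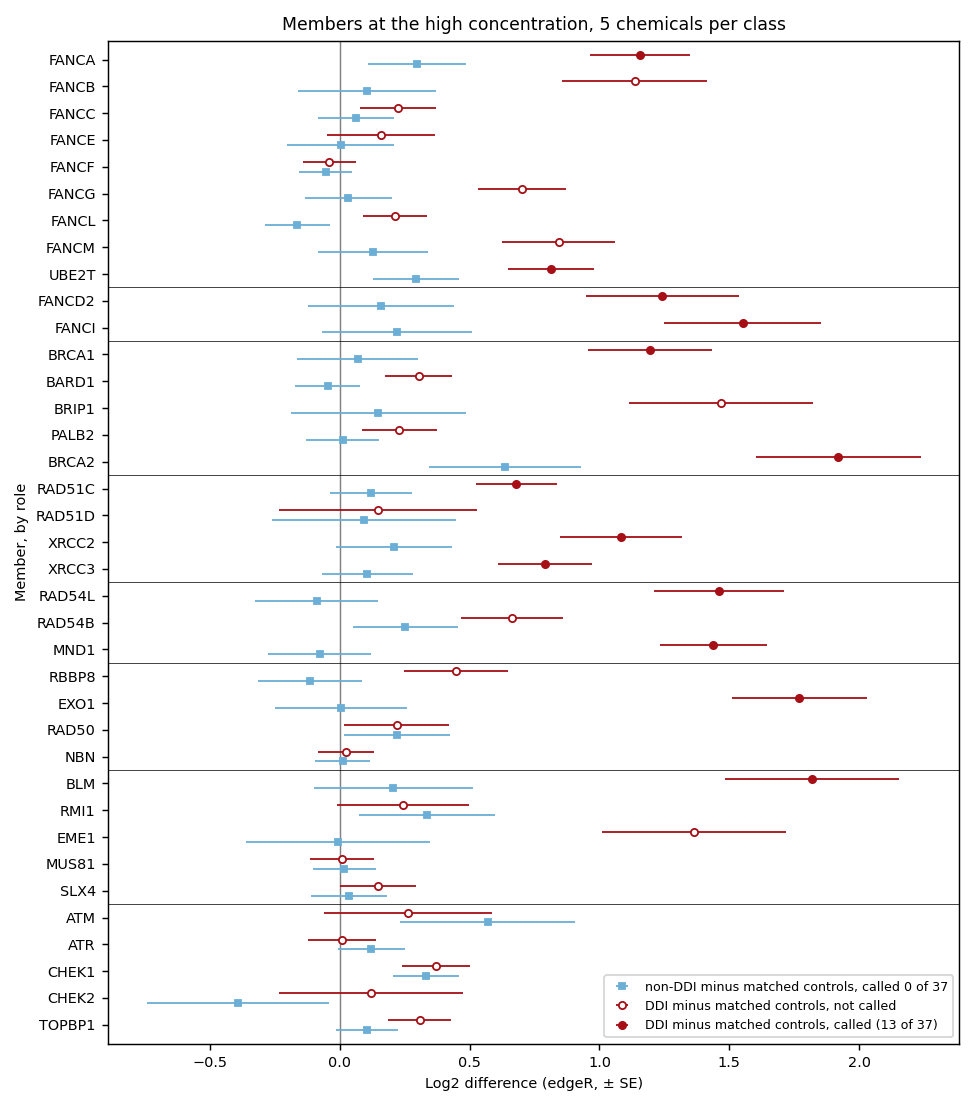
Log2 difference from the matched controls at the high concentration (x axis; points are edgeR estimates, bars ± SE; circles DDI, filled where called, squares non-DDI; 5 chemicals per class). The filled circles of 13 members lie between 0.68 (RAD51C) and 1.92 (BRCA2), and 0 of the 37 squares was called. In non-DDI chemicals 0% of all genes tested were called.

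FANCD2 and FANCI, the pair that carries the ubiquitin mark, were both called in DDI chemicals. FANCI stood at 1.93 RPM in the control and 12.6 RPM at the high concentration of AFB1, and went from 1.78 to 12.5 RPM in 2NF, 3.22 to 4.08 in CISP, 1.97 to 5.53 in ETP and 6.19 to 17.8 in MMS. All 5 DDI libraries were above their controls, by a log2 difference of 1.55 (SE 0.30, adjusted p = 0.022). In non-DDI chemicals FANCI went from 1.93 RPM to 6.29 at the high concentration of COL. At the high concentration of AMP, 2DG, ASC and NaCl it was at 4.69 to 7.44 RPM, and their controls were at 4.70 to 7.43 RPM. Among their lower concentrations it reached 8.84 RPM in ASC 1 mM and 4.31 in NaCl 1 mM. The difference between the classes was 1.33 (SE 0.38, adjusted p = 0.29).

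FANCD2 went from 3.94 to 13.1 RPM in AFB1, 2.41 to 17.4 in 2NF, 3.48 to 6.23 in ETP and 8.25 to 23.6 in MMS. In CISP it stood at 4.62 RPM in the control and 4.35 at the high concentration. It was thus above its control in 4 of 5 DDI chemicals, with a log2 difference of 1.24 (SE 0.29, adjusted p = 0.048), and this call was lost with DESeq2 size factors in edgeR and with a filter of at least 10 counts in every library. CISP forms crosslinks in DNA.

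In the core complex group, FANCA, a scaffold subunit, rose by 1.16 on the log2 scale in DDI chemicals (SE 0.19, adjusted p = 0.013) and was higher in 5 of 5. Its levels from control to high concentration were 4.65 and 12.4 RPM in AFB1, 3.35 and 10.4 in 2NF, 3.55 and 6.02 in CISP, 3.10 and 7.41 in ETP and 8.57 and 21.8 in MMS. UBE2T, the E2 enzyme, was also higher in 5 of 5, by 0.81 (SE 0.17, adjusted p = 0.027). It went from 28.6 to 74.6 RPM in AFB1, while its log2 ratio in ETP was 0.18. The classes overlapped in both genes at the high concentration. In the 5 non-DDI chemicals the log2 ratio of FANCA ran from -0.44 to 0.79, and its lowest DDI ratio was 0.63. That of UBE2T ran from -0.12 to 0.76 in the non-DDI chemicals. Both were highest there in COL. FANCB (1.14, SE 0.28, adjusted p = 0.056), FANCM, the translocase that anchors the complex on DNA (0.84, SE 0.22, adjusted p = 0.068), and FANCG (0.70, SE 0.17, adjusted p = 0.053) were higher in 5 of 5 DDI chemicals without passing the threshold. In these genes too the ratios of the classes overlapped. FANCC, FANCE, FANCF and FANCL had log2 differences of 0.23, 0.16, -0.04 and 0.21 and adjusted p-values of 0.41 to 0.89. FANCF ran between 26.6 and 34.3 RPM in the 5 DDI libraries and between 28.9 and 31.3 in the DMSO controls.

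BRCA2, a central mediator of HR, had the largest log2 difference of the 37 members in DDI chemicals, 1.92 (SE 0.32, adjusted p = 0.013), and was higher in 5 of 5. It went from 2.29 to 7.76 RPM in AFB1, 1.26 to 11.3 in 2NF, 1.40 to 2.96 in CISP, 0.530 to 4.94 in ETP and 5.32 to 16.5 in MMS. In non-DDI chemicals its difference was 0.64 (SE 0.29, adjusted p = 0.91), with a rise from 2.29 to 4.99 RPM in COL and 3.10 to 6.71 in ASC. BRCA1, a ubiquitin ligase that promotes resection, was higher in 5 of 5 DDI chemicals by 1.20 (SE 0.24, adjusted p = 0.025), from 2.41 to 11.4 RPM in 2NF and from 5.23 to 8.88 in AFB1. It stood at 3.90 RPM in COL against 5.23 in the control that COL and AFB1 share. Over the 5 non-DDI chemicals the log2 ratio of BRCA1 ran from -0.58 in NaCl to 0.69 in 2DG. Its lowest DDI ratio was 0.59 (CISP), so the classes overlapped. BRIP1, a helicase bound to BRCA1, had a difference of 1.47 (SE 0.35, adjusted p = 0.053). BARD1, the obligate partner of BRCA1, had 0.30 (SE 0.13, adjusted p = 0.24) and PALB2, the bridge from BRCA1 to BRCA2, had 0.23 (SE 0.14, adjusted p = 0.45), and neither was called.

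Of RAD51C, RAD51D, XRCC2 and XRCC3, which act in HR, XRCC2 rose by 1.08 (SE 0.23, adjusted p = 0.033), XRCC3 by 0.79 (SE 0.18, adjusted p = 0.041) and RAD51C by 0.68 (SE 0.16, adjusted p = 0.043). XRCC2 went from 5.16 to 12.2 RPM in AFB1, 4.12 to 7.78 in CISP, 3.40 to 8.58 in ETP and 13.1 to 24.9 in MMS, and from 5.16 to 10.5 RPM in COL. Its log2 ratio in 2NF was 1.68. RAD51C was higher in 4 of 5 DDI chemicals, with 17.2 RPM in the control of CISP and 17.1 at its high concentration. RAD51D, with few counts, had 0.15 (SE 0.38).

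RAD54L, MND1 and EXO1 were called in DDI chemicals, and each of their DDI ratios exceeded each non-DDI ratio at the high concentration. At the mid concentration the classes overlapped in all 3. RAD54L had a log2 difference of 1.46 in DDI chemicals (SE 0.25, adjusted p = 0.014) and went from 1.22 to 4.58 RPM in AFB1, 1.15 to 7.76 in 2NF, 1.32 to 2.22 in CISP, 1.36 to 3.41 in ETP and 4.28 to 10.5 in MMS. In COL it went from 1.22 to 1.95 RPM. RAD54L differed between the classes by 1.55 (SE 0.32, adjusted p = 0.10).

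MND1, which with PSMC3IP stimulates strand exchange and is best known from meiosis, had a difference of 1.44 in DDI chemicals (SE 0.20, adjusted p = 0.0049). It went from 3.01 to 10.6 RPM in AFB1, 2.51 to 8.15 in 2NF, 1.57 to 3.70 in CISP, 1.66 to 5.41 in ETP and 6.58 to 16.7 in MMS. In the non-DDI chemicals the control and high levels were 3.01 and 4.34 RPM in COL, 5.71 and 3.67 in AMP, 7.09 and 9.62 in 2DG, 5.78 and 6.30 in ASC and 7.52 and 4.26 in NaCl. The 5 DDI ratios ran from 0.87 to 1.53 and the 5 non-DDI ratios from -0.70 to 0.41. The difference between the classes was 1.51 (SE 0.26, adjusted p = 0.065).

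EXO1, an exonuclease of long-range resection, had the largest difference between the classes, 1.76 (SE 0.34, adjusted p = 0.083). It went from 1.72 to 7.29 RPM in AFB1, 1.89 to 8.72 in 2NF, 1.24 to 4.08 in CISP, 1.06 to 4.70 in ETP and 4.12 to 8.46 in MMS, a log2 difference of 1.77 from the controls (SE 0.26, adjusted p = 0.0054). In COL it stood at 1.72 RPM in the control and 1.74 at the high concentration. The other resection genes were not called in DDI chemicals: RBBP8, which starts resection, had 0.45 (SE 0.20), RAD50 0.22 (SE 0.20) and NBN 0.03 (SE 0.11).

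BLM, a helicase that dissolves joint molecules, rose by 1.82 (SE 0.33, adjusted p = 0.018) and was higher in 5 of 5 DDI chemicals, from 1.15 to 3.46 RPM in AFB1, 0.314 to 4.31 in 2NF, 0.577 to 1.11 in CISP, 0.454 to 2.59 in ETP and 2.78 to 8.23 in MMS. Its controls held 3 counts in 2NF, 7 in CISP and 6 in ETP. In the 5 non-DDI chemicals its log2 ratio ran from -0.18 to 0.75 (ASC), and its lowest DDI ratio was 0.42 (CISP). EME1 had a difference of 1.36 (SE 0.35, adjusted p = 0.069) and was higher in 5 of 5. It went from 0.501 to 3.55 RPM in AFB1, whose control held 7 counts, and from 0.838 to 5.18 in 2NF. In the 5 non-DDI chemicals the log2 ratio of EME1 ran from -0.86 in ASC to 0.87 in COL, which has the same control as AFB1. Its lowest DDI ratio was 0.15 (CISP). MUS81, the nuclease that EME1 partners, had 0.01 (SE 0.12), and ran from 43.0 to 45.1 RPM in AFB1 and from 66.0 to 59.8 in MMS. SLX4, a scaffold for nucleases, had 0.15 (SE 0.15). The difference between EME1 and MUS81 was not tested.

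**Figure D3:**
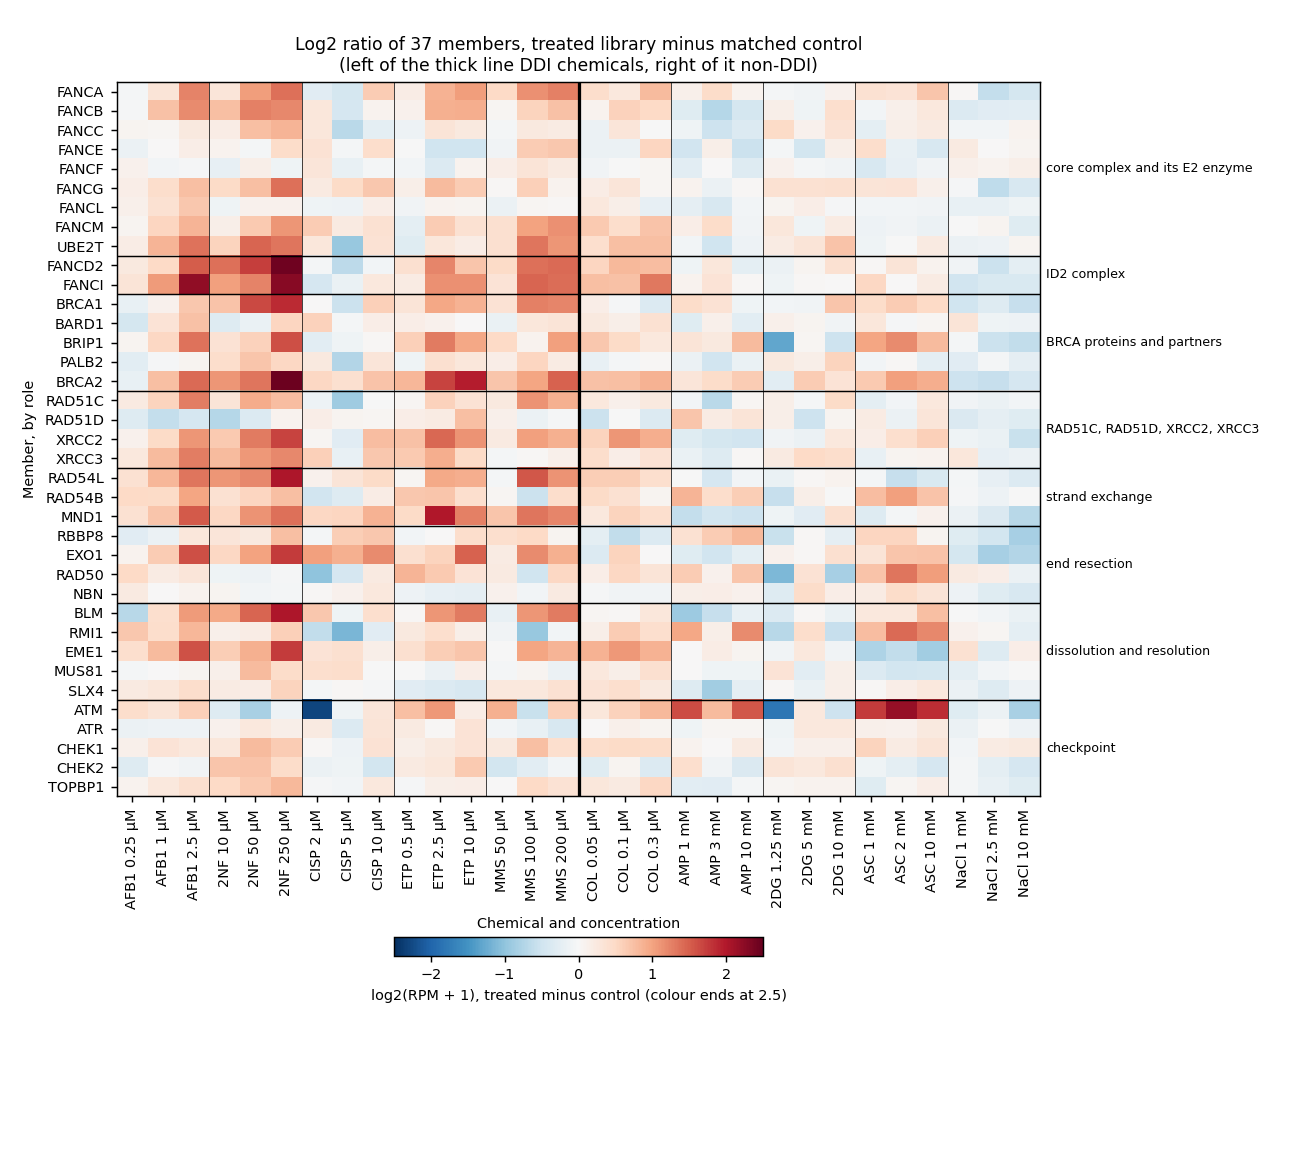
Log2 ratio of each member in each treated library (colour, log2(RPM + 1) minus matched control; members in rows by role, 30 conditions in columns, DDI left and non-DDI right of the thick line). FANCD2, FANCI and BRCA2 are darkest red at the high concentration of 2NF, and the row of ATM is dark blue at CISP 2 µM and 2DG 1.25 mM and red across ASC.

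The dose trends gave 1 test per chemical, a slope in log2 units per concentration step from control to high. The median ratio of the 37 members at the low, mid and high concentration was 0.11, 0.39 and 0.75 in AFB1, 0.36, 0.75 and 0.82 in 2NF, 0.16, 0.54 and 0.51 in MMS and 0.17, 0.57 and 0.42 in ETP. In CISP it was 0.11, -0.12 and 0.27. The medians of AFB1 and 2NF were in dose order, while those of MMS and ETP were highest at the mid concentration and that of CISP fell below 0 there.

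In 2NF, 18 of the 37 members rose with the concentration and 0 fell, against 4.3% of all genes rising. BRCA2 had a slope of 0.92 per step (SE 0.16, adjusted p = 0.00026), FANCI 0.82 (SE 0.14, adjusted p = 0.00029) and FANCD2 0.81 (SE 0.15, adjusted p = 0.00049). BLM had the steepest slope of the 37 in this chemical, 1.00 (SE 0.25, adjusted p = 0.011), but from a control with 3 counts. The 18 included TOPBP1, an activator of the kinase ATR, with 0.25 (SE 0.07, adjusted p = 0.019), at 22.3, 31.7, 35.9 and 40.1 RPM from control to high, the one checkpoint gene called in any trend. Without the high libraries 4 of the 37 were called, without the low libraries 11 and without the mid libraries 14.

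In AFB1, 11 members rose and 0 fell, with 2.36% of genes rising. FANCI led with 0.81 per step (SE 0.12, adjusted p = 0.00024), at 1.93, 2.66, 5.10 and 12.6 RPM. EXO1 followed with 0.70 (SE 0.14, adjusted p = 0.0029), at 1.72, 1.89, 3.22 and 7.29 RPM. EME1 had 0.65 (SE 0.17, adjusted p = 0.019), from a control with 7 counts. The other 8 were FANCA, FANCB, UBE2T, FANCD2, BRCA2, RAD51C, XRCC3 and MND1, with slopes of 0.38 to 0.63. Without the high libraries edgeR called 0 members, without the low libraries 2 and without the mid libraries 12.

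In MMS, 10 members rose and 0 fell, with 5.1% of genes rising. BLM had a slope of 0.58 (SE 0.20, adjusted p = 0.043), FANCI 0.55 (SE 0.13, adjusted p = 0.0049) and RAD54L 0.54 (SE 0.15, adjusted p = 0.013). RAD54L was at 4.28, 4.13, 14.5 and 10.5 RPM from control to high, so the step lay between the low and the mid concentration. The other 7 were FANCA, FANCM, UBE2T, FANCD2, BRCA1, BRCA2 and MND1. Without the low libraries 3 members were called, without the mid libraries 10 and without the high libraries 9.

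In ETP, BRCA2 was the 1 member called, with a slope of 0.99 (SE 0.18, adjusted p = 0.035), at 0.530, 1.73, 3.97 and 4.94 RPM, while 0.0796% of genes rose. The control of ETP held 7 counts of BRCA2, whose level in the other DMSO controls was 1.26 to 2.29 RPM. At an unadjusted p under 0.05, 14 members were higher, against 2.98% of genes. MND1 was at 1.66, 2.69, 9.66 and 5.41 RPM, highest at the mid concentration (slope 0.72, SE 0.18, adjusted p = 0.15). BRCA2 was not called without the low, the mid or the high libraries, and without the high libraries MND1 and XRCC2 were.

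In CISP, edgeR and DESeq2 called 0 members. In this trend edgeR called 0% of all genes, higher or lower, so the 0 is not particular to the members. At an unadjusted p under 0.05, 3 members (FANCG, RBBP8 and EXO1) were higher, against 3.3% of genes. EXO1 was at 1.24, 3.55, 3.12 and 4.08 RPM, with a slope of 0.41 (SE 0.17, adjusted p = 0.64). UBE2T was at 28.7, 35.0, 14.5 and 37.4 RPM and RAD51C at 17.2, 15.6, 8.89 and 17.1 RPM, both lowest at the mid concentration.

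**Figure D4:**
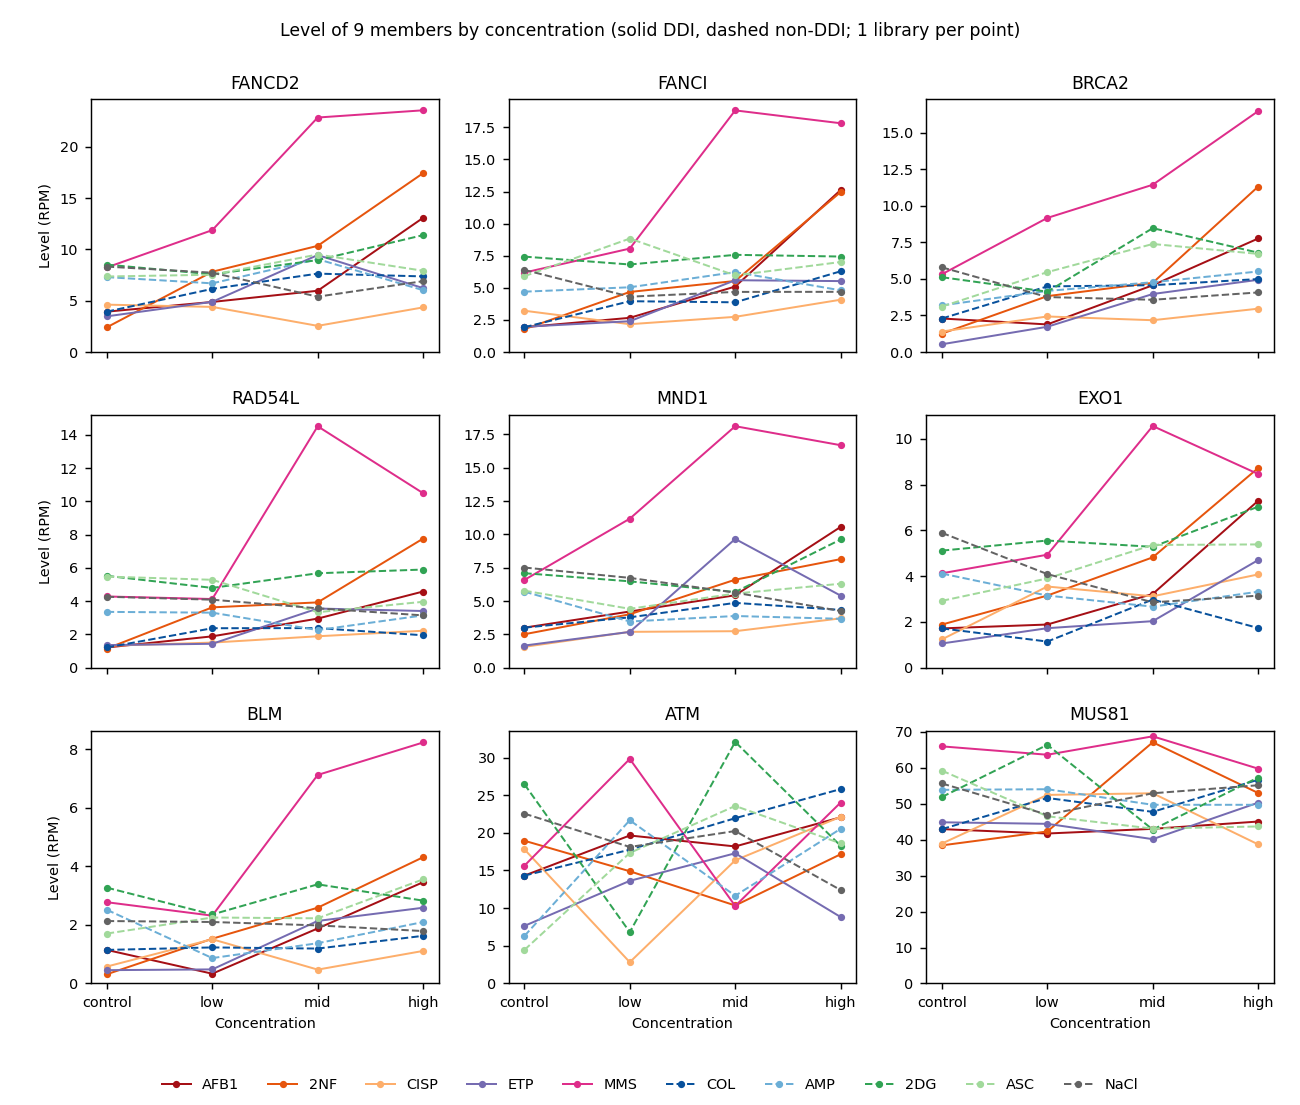
Level of 9 members (y axis, RPM) in the matched control and at the low, mid and high concentration of each chemical (solid lines DDI, dashed lines non-DDI; 1 library per point, AFB1 and COL starting from the same control). FANCI climbs with 2NF and AFB1, MMS reaches the highest level in every panel but that of ATM, and ATM drops to 2.82 RPM at the low concentration of CISP.

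Over the chemicals, 19 members were called in at least 1 trend and 18 in none. FANCA, UBE2T, FANCD2 and MND1 were called in AFB1, 2NF and MMS, BRCA2 in these 3 and ETP, and FANCI in these 3 and COL. XRCC2 was the other member that rose with COL. The 2 called in COL, FANCI with 0.56 per step (SE 0.13, adjusted p = 0.0048) and XRCC2 with 0.41 (SE 0.12, adjusted p = 0.020), compare with 5.13% of all genes rising in COL. Without the low or the high libraries 1 member was called in COL, and without the mid libraries 4. Among the other non-DDI chemicals edgeR and DESeq2 called 0 members. Of all genes, edgeR called 0% higher in AMP and in 2DG, 0.0145% in ASC and 0.0362% in NaCl. At an unadjusted p under 0.05 edgeR had 1 member higher in AMP (1.31% of genes), 0 in 2DG (0.608%), 5 in ASC (6.87%) and 0 in NaCl (3.08%). On a scale of concentration divided by the high concentration, 4 members were called in AFB1, 3 in 2NF and 0 each in ETP, MMS and COL. The share of all genes called on this scale is not given. A loss of calls in the members can therefore not be told from a loss in all genes.

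AFB1 and COL shared a control, so their slopes were set against each other directly. The slope of AFB1 exceeded that of COL in 2 of 37 members, EXO1 by 0.49 per step (SE 0.14, adjusted p = 0.032) and FANCL by 0.22 (SE 0.06, adjusted p = 0.031), and 3.24% of all genes were higher in this comparison. FANCL, the E3 ligase of the pathway, was at 15.5 RPM in the shared control, at 16.9, 20.5 and 25.3 RPM in AFB1 and at 18.6, 17.3 and 13.3 RPM in COL. Its slope was called in neither chemical alone. This comparison was chosen after the values were seen.

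At the mid concentration edgeR called 0 members in DDI chemicals against matched controls (0.125% of genes higher), and DESeq2 called 6 (1.15%). At an unadjusted p under 0.05, 16 members were higher and 0 lower, against 4.44% of genes, led by BRCA2 with 1.28 (SE 0.32, adjusted p = 0.15), BLM with 1.28 (SE 0.35, adjusted p = 0.18) and MND1 with 1.24 (SE 0.27, adjusted p = 0.12). Between the classes edgeR and DESeq2 called 0 members (0% and 0.0881% of genes higher). By edgeR, 6 members were higher at an unadjusted p under 0.05 (2.49% of genes). At the low concentration both tools called 0 members in either comparison, and 0% of all genes were called higher. The 4 members higher in DDI chemicals at an unadjusted p under 0.05 (1.64% of genes) were FANCD2, XRCC3, MND1 and EXO1, and the 2 higher between the classes (1.03% of genes) were MND1 with 0.78 (SE 0.22) and EXO1 with 0.81 (SE 0.30).

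None of the checkpoint genes was called at any concentration in a class. ATR had a log2 difference of 0.01 in DDI chemicals (SE 0.13), CHEK1 0.37 (SE 0.13, adjusted p = 0.16) and CHEK2 0.12 (SE 0.35). CHEK1 had 0.33 (SE 0.13) in non-DDI chemicals. ATM, the kinase that answers DNA breaks, had levels in dose order in COL alone, at 14.3, 17.8, 21.9 and 25.8 RPM from control to high (slope 0.23, SE 0.26, adjusted p = 0.70). In other chemicals it swung widely: its ratio was -2.30 at CISP 2 µM, where it stood at 2.82 RPM against 17.8 in the control, -1.81 at 2DG 1.25 mM and 2.17 at ASC 2 mM. Its controls ran from 4.44 to 26.5 RPM, so ATM differed by up to 2.33 on the log2 scale between media controls. RAD50 and RMI1 shared several of these extremes. RAD50 was at 18.7 RPM at CISP 2 µM against 38.7 in the control and at 22.1 RPM at 2DG 1.25 mM against 49.4, and RMI1 had its highest ratio, 1.42, at ASC 2 mM, as did RAD50 with 1.34. The control of ASC was the lowest of the 9 for ATM, RAD50 and RMI1.

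Some genes of proliferation and replication were also higher. In DDI chemicals at the high concentration 3 of 12 proliferation genes and 5 of 12 replication genes were called higher and 0 lower, with medians of 1.27 and 0.73. Of all genes, 1.49% were called higher in this comparison. RRM2, a subunit of ribonucleotide reductase, rose by 1.76 (SE 0.23, adjusted p = 0.0041), and TOP2A, a topoisomerase of dividing cells, by 1.60 (SE 0.29, adjusted p = 0.016). Of 12 targets of the damage-activated factor p53, 6 were called higher, with a median of 0.65. The median ratio of the 12 proliferation genes at the high concentration was 1.64 in AFB1 and 2.60 in 2NF, 0.67 in CISP and 0.66 in ETP. It was 1.15 in MMS and 1.91 in COL. It was between -0.42 and 0.54 in AMP, 2DG, ASC and NaCl. The part of these genes in the result for the FA and HR members was not tested.

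COL blocks spindle assembly. In its trend 11 of 12 proliferation genes, 0 of 12 replication genes and 0 of 12 p53 targets were called higher, beside 2 of the 37 members, a share near the 5.13% of all genes. In AFB1 the counts were 4, 9 and 7 of 12 and 11 of 37 (2.36% of all genes), in 2NF 10, 11 and 4 of 12 and 18 of 37 (4.3%), and in MMS 6, 4 and 3 of 12 and 10 of 37 (5.1%). The median ratio at the high concentration was 0.36 for the members and 1.91 for the proliferation genes in COL, and 0.75 and 1.64 in AFB1. Of the 10 hepatocyte markers, 5 were called lower in the trend of AFB1 (3.21% of all genes), 6 in 2NF (4.45%), 6 in MMS (10.4%) and 7 in COL (7.21%), and the others were not called. Their summed RPM was 44219 in the control that AFB1 and COL share, 26753 at the high concentration of AFB1 and 21240 at that of COL. At the high concentration of CISP and ETP the sums were 40291 and 41796 RPM, against 50594 and 36072 in their controls. The part of the hepatocyte share in the result was not tested.

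**Figure D5:**
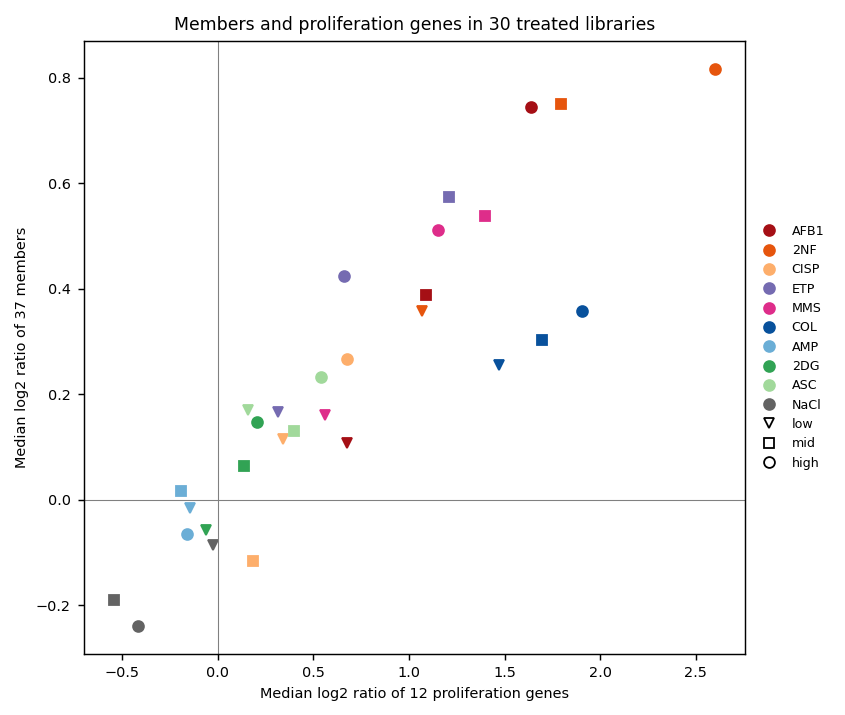
Median log2 ratio of the 37 members (y axis) against that of 12 proliferation genes (x axis) in the 30 treated libraries (colours, chemicals; triangles low, squares mid, circles high concentration). 2NF and AFB1 at the high concentration lie at 0.82 and 0.75 on the y axis, and the 3 COL points, at 0.26 to 0.36, lie below the mid points of ETP and MMS, at 0.57 and 0.54, which have lower x values.

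Some other genes of the repair pathways rose as well. Of 45 further repair partners with a target, 44 were tested. In DDI chemicals at the high concentration 4 were called higher and 0 lower, with a median of 0.16, while 1.49% of all genes were called higher. They were CLSPN, an adaptor of CHEK1, with 1.40 (SE 0.22, adjusted p = 0.0094), POLQ, the polymerase of microhomology-mediated end joining, with 1.52 (SE 0.32, adjusted p = 0.031), RAD51AP1 with 1.29 (SE 0.30, adjusted p = 0.048), and RMI2, a partner of BLM, with 0.91 (SE 0.21, adjusted p = 0.046). PSMC3IP, the partner of MND1, had 0.72 (SE 0.19, adjusted p = 0.074). The difference in frequency between these genes and the 37 members was not tested.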

How the data were processed

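RNA was pooled from 3 cultures per treatment group, and 39 libraries were made with the AmpliSeq transcriptome panel, in which every gene has 1 short amplified target. Reads were aligned by the authors with TMAP in the Ion Torrent Suite to the transcripts of the panel (hg19), and the authors deposited read counts per target, not normalized. The authors also deposited RPM, the counts scaled to the library total. Recomputed RPM differed from the deposited values by at most 0.000538. The 10 spike-in targets, with no counts, and 6 annotation columns were not used. Chemicals were assigned to DDI and non-DDI classes after the study's own division, and concentrations and vehicles came from the sample labels.

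Counts were tested with edgeR 4.0.16 (TMM, filterByExpr, quasi-likelihood test) in R 4.3.3. Each class fit held the 10 treated libraries of 1 concentration and the 9 controls (19 libraries), the matched control as a block and 1 term per class (8 residual degrees of freedom). Trends were fitted to 39 libraries with 10 slopes on the dose rank (20 residual degrees of freedom). All p-values are two-sided. They were adjusted by the Benjamini-Hochberg method across the genes of a fit, with calls at 0.05. The pseudocount of log2(RPM + 1) was 1. TMM in place of RPM shifted the median gene by up to 0.11 (log2). The tests were checked on simulated counts. Alternatives were DESeq2 1.42.0, other normalizations and filters, no block, 1 fit of 39 libraries and each chemical left out. Other steps used Python 3.11.15, pandas 2.3.3, numpy 2.4.6 and matplotlib 3.10.9. Full statistics were given for members called in at least 1 comparison and for the 10 with the largest class difference, and for at most 4 genes of each other list, with the 4 called repair partners named after their values were seen. The values of 1 repair partner are not reported here. The 37 members and the other lists were chosen with earlier results of these data known. Depth, 8504699 to 16425527 counts, limits the genes with few counts. No molecular identifiers were used.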

Additional observations from a re-analysis of the deposited data

Results flagged for a closer look

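In 76 checks of named members, each over the DMSO controls, the media controls or the 5 ratios of a class at the high concentration, for a value far from the rest, of which chance flags about 1 in 20, 2 stood out. FANCI in the DMSO control of CISP was at 2.08 on the log2(RPM + 1) scale, against 1.48 to 1.57 in the other DMSO controls. BRIP1 in the DMSO control of ETP was at 0.68, against 0.99 to 1.03 in the others. A difference between the slopes of AFB1 and COL, which share a control, was found for EXO1 (0.49 per step, edgeR adjusted p = 0.032) and FANCL (0.22 per step, edgeR adjusted p = 0.031). These are 2 of 37 members, where 3.24% of all genes were higher, and the comparison was chosen after the values were seen. EXO1 and FANCL were each higher than the control at 3 of 3 concentrations of AFB1, with log2 ratios of 0.09 and 0.12 at the low concentration. From low to high COL the ratios were -0.34, 0.55 and 0.01 for EXO1 and 0.25, 0.15 and -0.20 for FANCL.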

How the results depend on the processing

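Of the counts of called members recomputed under an alternative, 140 stayed within 1.5 times and 38 moved, and the cause was not tested. A count of 0 in both fits was taken as staying, as in every trend of CISP, AMP, 2DG, ASC and NaCl. The 140 therefore do not measure how stable the counts above 0 were. For DDI minus non-DDI at the high concentration, DESeq2 called 3 members (0.573% of genes called higher). No filter on low counts gave 2 (0.159%), the fit of 39 libraries 4 (0.908%), and leaving out each chemical 0 to 1 (0% to 0.125%). For DDI chemicals against matched controls at the high concentration, the fit without the control block called 0 (0.393% of genes called higher). The DMSO-given chemicals alone gave 5 (0.892%), and leaving out each chemical gave 0 to 18 (0.0734% to 3.59%). At the mid concentration DESeq2 called 6 (1.15% of genes called higher), no filter 1 (0.211%) and the fit of 39 libraries 4 (0.667%). Leaving out each chemical gave 0 to 4 (0.022% to 0.866%). With the concentration scaled to the high concentration, the trends called 4 members in AFB1, 3 in 2NF and 0 in ETP, MMS and COL. The trend of ETP called 2 with DESeq2, and that of COL called 4 with library totals only. Leaving out the low, mid or high libraries gave 0 to 12 members in AFB1, 4 to 14 in 2NF, 0 to 2 in ETP, 3 to 10 in MMS and 1 to 4 in COL. For DMSO against media controls, leaving out each control gave 8 to 15. The share of all genes called is not given for these fits or for the refits of the trends. Of the differences between the classes for single members, 324 kept direction and call, 10 gained a call and 3 turned direction. These were XRCC3 without the control block (-0.0604), TOPBP1 without it (-0.0013) and TOPBP1 with the DMSO-given chemicals alone (-0.0914). The matched control was a block in the class fits. No paired analysis by replicate number was possible because the groups share fewer than 2 numbers. The DMSO-given fit and the comparison of vehicles were chosen after seeing the data. Depth limits RAD51D, CHEK2 and BLM, which had as few as 2, 2 and 3 counts in a library. FANCB, BRCA2 and EME1 had as few as 7.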
